A study of Mus musculus with 16 samples.

Results

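The genes described here encode 10 proteins that neutrophils and their precursors store in granules or hold in the cytosol: Mpo, Elane, Prtn3, Ctsg, Lyz2, S100a8, S100a9, Ngp, Camp and Ltf. They were taken as the genes of the deposited read count table whose identifiers map to these symbols, and all 10 were found once each among the 55416 genes of the table. RNA was sequenced from erythroblasts of mouse foetal liver at embryonic day 13.5, sorted by the erythroid surface proteins Ter119 and CD71 into an early (S1) and a later (S3) stage. In the study's terms S1 holds cells like colony-forming erythroid progenitors and S3 holds basophilic erythroblasts. The samples were 8 embryos, each giving 1 library per stage: 4 wildtype (WT, embryos 0, 1, 5 and 8), 2 heterozygous (Het, embryos 3 and 4) and 2 homozygous (KO, embryos 2 and 9) for a deletion of the promoter of Nprl3, a component of the GATOR1 complex that restrains mTORC1. The deletion is present in every cell of the embryo, and the line was backcrossed onto C57BL/6 J. WT embryos 0 and 8, both Het embryos and KO embryo 9 were male, and WT embryos 1 and 5 and KO embryo 2 were female. Each group is small, with 4, 2 and 2 embryos per stage, and all Het and KO embryos carry the same deletion allele. The source, tissue and cell line fields of the labels name an embryonic stem cell line, ES-E14TG2a, whereas the titles and the sorting protocol give foetal liver. The 10 erythroid markers examined summed to between 1812.5 and 7896.4 CPM (counts per 1000000 counted read pairs, scaled by the trimmed mean of M values, TMM) in the S1 libraries and to between 122421 and 158934 CPM in the S3 libraries.

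Neutrophils fill their granules in sequence as they mature. At the promyelocyte stage the azurophil (primary) granules are packed with myeloperoxidase, the product of Mpo, which makes hypochlorous acid, and with the serine proteases neutrophil elastase (Elane), proteinase 3 (Prtn3) and cathepsin G (Ctsg). Lysozyme (Lyz2), which cleaves bacterial cell walls, is stored by neutrophils but is also a major product of macrophages, including those at the centre of the erythroblastic islands of foetal liver. At the myelocyte stage and later the specific (secondary) granules receive lactoferrin (Ltf), which binds iron, the cathelicidin precursor (Camp) and neutrophilic granule protein (Ngp), and the cytosol fills with calprotectin, the dimer of S100a8 and S100a9 that binds calcium and zinc. Transcription factors of the C/EBP, PU.1 and RUNX families are known regulators of these genes in myeloid precursors.

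The genes lay on 5 chromosomes of the mm39 (GRCm39) build. Prtn3 (chr10:79710310-79719008) and Elane (chr10:79722081-79724049) were neighbours on chromosome 10 with 3.1 kb between them, and Lyz2 lay elsewhere on the same chromosome (chr10:117113236-117118226). S100a8 (chr3:90576285-90577342) and S100a9 (chr3:90599939-90603028) were 22.6 kb apart on chromosome 3. Camp (chr9:109676447-109678685), Ngp (chr9:110248815-110252080) and Ltf (chr9:110848339-110871835) were spread over one region of chromosome 9, with 570.1 kb between the first pair and 596.3 kb between Ngp and Ltf. Mpo (chr11:87684407-87695239) and Ctsg (chr14:56337338-56340031) had no other member near them. The reads were counted without regard to strand, so that Mpo cannot be told apart from Gm11505 and Prtn3 from Plppr3 where these genes overlap them on the other strand.

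The promoters differed in the letters that factors of these families are known to bind. Windows of 250 bases before the RefSeq start of each member (promoter table of RefSeq, build GRCm38.p6, each window found once in GRCm39) were searched on both strands for TTGCNNAA (the C/EBP core), GAGGAA (PU.1) and TGTGGT (RUNX). The C/EBP letters were in 3 of the 10 windows, those of S100a9, Ngp and Ltf, and in 9.57% of all 32841 promoters of the table. All 3 belong to the 5 late-expressed genes, of which S100a8 and Camp held none, and none of the azurophil granule genes held them. The PU.1 letters were in 6 of 10 windows, those of Mpo, Elane, Prtn3, Ctsg, S100a8 and Ltf, against 23.3% of all promoters, and the RUNX letters in 3 of 10, those of Ctsg, Lyz2 and S100a9, against 14%. The longer string GAGGAAGT, which contains the PU.1 letters and was noticed only when the windows were read, was in 4 of 10, those of Mpo, Elane, Prtn3 and S100a8, against 2.44%. These matches describe letters and do not show that a factor was bound. The stretches below show 2 of the protease genes and the 3 late-expressed genes that hold the C/EBP letters. Each ends before the first counted base of the gene, and capitals mark the PU.1 letters or the C/EBP letters on either strand. Elane is chr10:79721896-79722080 (plus strand), Ctsg is chr14:56340032-56340281 (minus strand), S100a9 is chr3:90603029-90603278 (minus strand), Ngp is chr9:110248626-110248814 (plus strand) and Ltf is chr9:110848110-110848338 (plus strand), all in GRCm39.
Elane: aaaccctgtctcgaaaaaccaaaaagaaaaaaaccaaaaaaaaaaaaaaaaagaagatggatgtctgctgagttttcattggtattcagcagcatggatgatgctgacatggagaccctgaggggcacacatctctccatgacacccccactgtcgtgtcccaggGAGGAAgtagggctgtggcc
Ctsg: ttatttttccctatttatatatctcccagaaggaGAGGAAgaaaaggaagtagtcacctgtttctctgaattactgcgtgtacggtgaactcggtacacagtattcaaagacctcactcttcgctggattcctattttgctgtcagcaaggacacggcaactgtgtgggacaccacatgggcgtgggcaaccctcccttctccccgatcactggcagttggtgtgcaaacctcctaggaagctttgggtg
S100a9: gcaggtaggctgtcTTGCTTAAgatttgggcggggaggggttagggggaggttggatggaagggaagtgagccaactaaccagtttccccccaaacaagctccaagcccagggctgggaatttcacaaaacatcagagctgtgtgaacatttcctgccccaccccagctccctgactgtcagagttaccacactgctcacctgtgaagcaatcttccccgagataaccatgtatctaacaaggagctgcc
Ngp: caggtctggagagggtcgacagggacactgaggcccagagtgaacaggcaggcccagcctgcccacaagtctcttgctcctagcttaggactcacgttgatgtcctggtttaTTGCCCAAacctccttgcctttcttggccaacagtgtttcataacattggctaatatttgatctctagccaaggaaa
Ltf: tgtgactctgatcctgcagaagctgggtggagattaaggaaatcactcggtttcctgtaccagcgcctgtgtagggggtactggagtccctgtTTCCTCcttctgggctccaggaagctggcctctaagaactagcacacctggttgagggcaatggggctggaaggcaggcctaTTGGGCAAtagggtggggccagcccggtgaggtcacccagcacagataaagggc
Counted from the RefSeq start, the capitals begin at position -85 in Elane, -216 in Ctsg, -236 in S100a9 and -138 in Ngp. In Ltf the PU.1 letters, on the reverse strand, begin at -157 and the C/EBP letters at -75. The Ngp window held a second C/EBP match, at -11, within the counted gene, which is not printed.

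The targeted gene was checked first. At S1, Nprl3 was at 26.4, 21, 23 and 33.8 CPM in WT embryos 0, 1, 5 and 8, at 12.4 and 12.6 CPM in Het embryos 3 and 4, and at 0.309 and 0.656 CPM in KO embryos 2 and 9. The difference between KO and WT on the log2 scale was -5.72 ± 0.43 (standard error, SE; adjusted p = 0.0212 by the quasi-likelihood F test of edgeR, adjusted after Benjamini and Hochberg). At S3 the KO libraries held 109.8 and 116.8 CPM over the Nprl3 gene against 142.9 to 213.7 CPM in WT, a difference of -0.55 ± 0.19 that was not called (adjusted p = 0.381), so that the label check rests on S1. The paper states that spliced, polyadenylated transcripts starting from the alpha-globin enhancers confound the measurement of Nprl3 mRNA. Its droplet PCR specific to promoter-derived mRNA detected no Nprl3 mRNA in KO cells. The counts per gene used here do not separate these kinds of transcript. Library totals were 23331156 to 36035368 read pairs at S1 and 20666044 to 37609502 at S3.

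The granule genes were detected in S1 libraries of every genotype. Summed over the 10 genes, WT embryos 0, 1, 5 and 8 held 212.3, 1315.2, 1134.1 and 129.9 CPM, Het embryos 3 and 4 held 1557.7 and 1555.8 CPM, and KO embryos 2 and 9 held 1623.3 and 1694.0 CPM. These sums were 0.019% to 0.255% of all counted read pairs. Mpo alone made up 62.1% to 75.4% of the sum in each S1 library. Libraries of 1 stage therefore differed widely within WT, where the 2 male embryos (0 and 8) were far below the 2 female embryos, while the 4 Het and KO libraries lay close together and above every WT library. In bulk RNA, fewer cells of a type and less RNA per cell cannot be told apart.

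**Figure D1:**
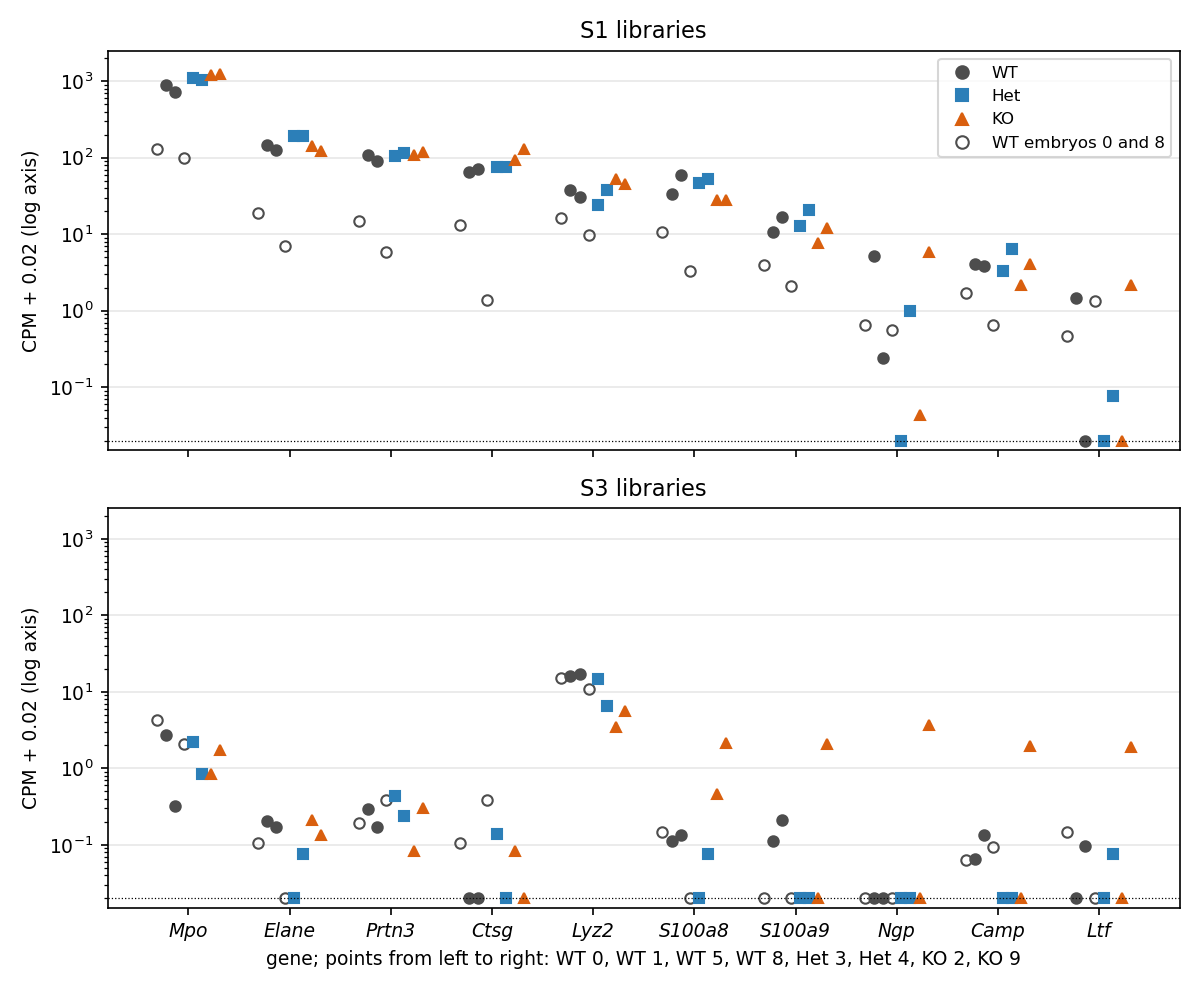
Level of each gene as CPM + 0.02 (log axis) in the S1 libraries (upper panel) and S3 libraries (lower panel), with 1 point per embryo, open circles for WT embryos 0 and 8 and a dotted line at a count of 0. At S1 the open circles lie below WT embryos 1 and 5 for every gene but Ngp and Ltf, and at S3 the Lyz2 points lie between 3.43 and 16.8 CPM.

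Compared per kilobase of transcript, Mpo and Elane led in every genotype. In WT at S1, Mpo averaged 136.1 ± 120.1 CPM per kb (SD, n = 4), Elane 75.8 ± 73.0, S100a8 38.9 ± 36.9, Ctsg 37.0 ± 35.0 and Prtn3 31.9 ± 30.4 CPM per kb. Lyz2 followed with 17.9 ± 9.54, S100a9 with 16.1 ± 13, Camp with 3.35 ± 2.17, Ngp with 1.33 ± 1.91 and Ltf with 0.233 ± 0.202 CPM per kb. The SDs were of the size of the means, and the means of neighbours in this order lay within their SDs. In KO the order was led by Mpo (352.7 ± 7.82 CPM per kb, SD, n = 2), Elane (135.2 ± 16) and Ctsg (108.0 ± 25), and in Het by Mpo (313.1 ± 8.96) and Elane (197.5 ± 0.969). With the narrower spread in these groups, Mpo stood above Elane in both, and the 3 specific granule genes were last in all 3 genotypes.

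Other genes moved with the WT split at S1. The erythroid markers summed to 7647.9 and 7896.4 CPM in WT embryos 0 and 8 against 2363.1 and 3119.5 CPM in WT embryos 1 and 5, 2066.7 and 2236.6 CPM in Het, and 1812.5 and 3085.6 CPM in KO. The 9 hepatoblast markers (albumin, alpha-fetoprotein and others) summed to 282.4 and 269.9 CPM in WT embryos 0 and 8 against 45.2 and 59.8 CPM in WT embryos 1 and 5, 20.7 to 35.1 CPM in Het, and 24.5 and 140.1 CPM in KO embryos 2 and 9. Both lists were thus highest in the libraries in which the granule genes were lowest. Markers of mast cells, basophils and eosinophils went the other way: their sum was 44.1 and 25.2 CPM in WT embryos 0 and 8, 172.9 and 124.6 CPM in WT embryos 1 and 5, 191.8 and 147.8 CPM in Het, and 276.3 and 312.9 CPM in KO. Prg2, the major basic protein of eosinophils, gave most of this sum in each S1 library. The 6 monocyte markers were split in the same way, with 6.92 and 7.06 CPM in WT embryos 0 and 8, 27.1 and 23.3 CPM in WT embryos 1 and 5, 16.9 and 26.2 CPM in Het, and 34.6 and 21.3 CPM in KO. At S1 early progenitor markers summed to 161.1 to 236.7 CPM, megakaryocyte markers to 19.4 to 79.0 CPM and macrophage markers to 10.4 to 36.6 CPM. The part of these lists, of embryo sex or of the sort gate in the level of the granule genes was not tested.

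**Figure D2:**
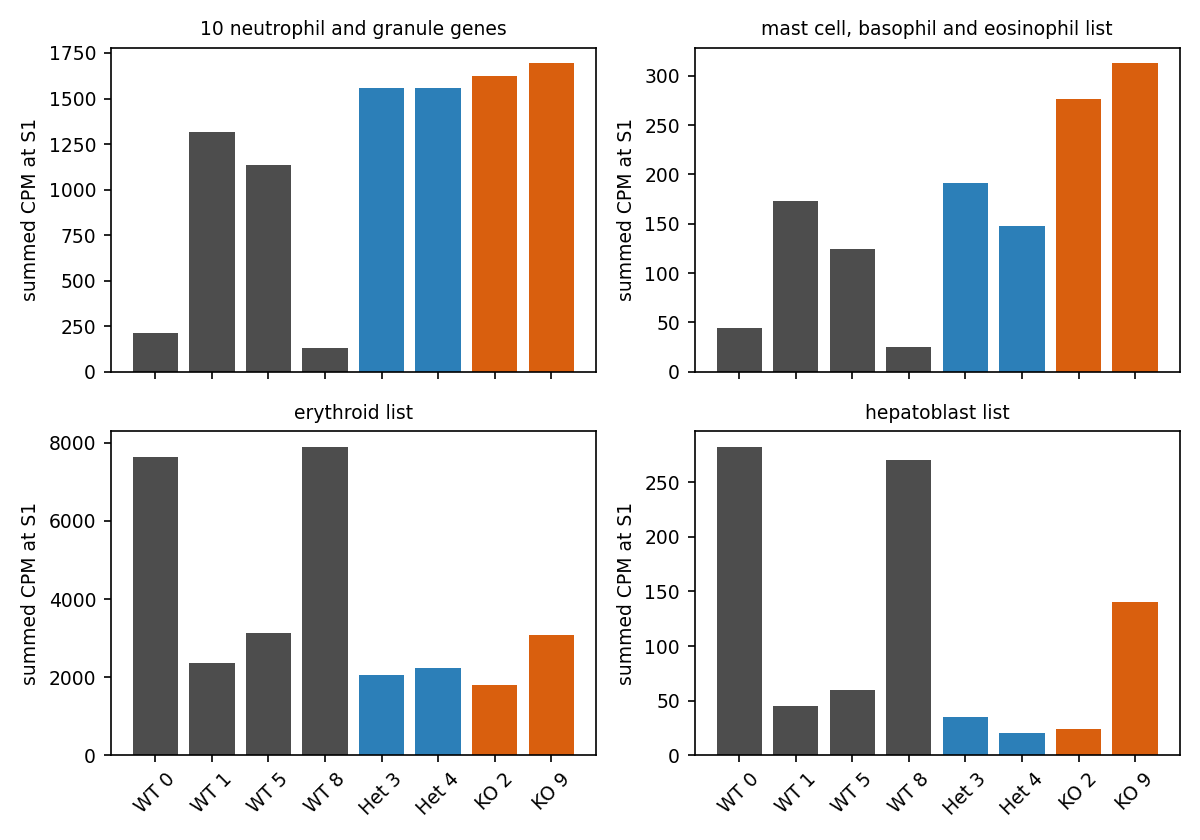
Summed CPM at S1 of the 10 granule genes and of the mast cell, basophil and eosinophil, erythroid and hepatoblast marker lists, in 4 panels with 1 bar per library coloured by genotype. WT embryos 0 and 8 have the lowest granule sums (212.3 and 129.9 CPM) and the highest erythroid sums.

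The first genotype comparison asked whether loss of Nprl3 changed these genes at S1. For Mpo, the 4 WT libraries held 131.8, 901.1, 732.9 and 97.9 CPM (embryos 0, 1, 5 and 8) and the 2 KO libraries 1188.7 and 1226.6 CPM. Both KO libraries were above every WT library, and the difference was 1.37 ± 0.82 on the log2 scale (adjusted p = 1 in the same edgeR test). For Ctsg, WT held 13.2, 66.0, 72.2 and 1.38 CPM and KO 93.3 and 129.8 CPM. The groups again did not overlap, with a log2 difference of 1.55 ± 1.10. For Lyz2, WT held 16.5, 37.3, 30.4 and 9.89 CPM and KO 51.9 and 45.3 CPM, a log2 difference of 1.05 ± 0.47. Lyz2 had the smallest p of the 10, 0.0602 before adjustment in edgeR's test. Of the macrophage markers 8 of the 11 tested had negative differences in KO at S1 (median -0.97) and none was called. Their sums were 36.6 and 20.1 CPM in WT embryos 0 and 8 and 12.3 and 17.2 CPM in WT embryos 1 and 5, against 13 and 21.1 CPM in KO, so that the KO libraries lay within the WT range.

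The remaining genes overlapped between KO and WT at S1. Elane was at 18.7, 145.6, 127.0 and 7.08 CPM in WT and at 144.1 and 121.9 CPM in KO (log2 difference 0.83 ± 1.00), and Prtn3 was at 14.7, 109.9, 90.5 and 5.79 CPM in WT and at 107.7 and 118.0 CPM in KO (1.03 ± 0.97). In both protease genes the KO values were within or beside those of WT embryos 1 and 5. S100a8 ranged from 3.3 to 60.1 CPM in WT and was at 27.8 and 28.4 CPM in KO, and S100a9 ranged from 2.08 to 17 CPM in WT and from 7.56 to 12 CPM in KO, so that for calprotectin the KO libraries lay inside the WT range. Of the specific granule genes, Ngp had 21, 219, 9 and 25 counts in WT embryos 0, 1, 5 and 8 but 1 count in KO embryo 2 and 286 in KO embryo 9. Ltf was at 0.449, 1.45, 0 and 1.32 CPM in WT and at 0 and 2.13 CPM in KO embryos 2 and 9. Camp, at 0.638 to 4.05 CPM in WT and 2.14 and 4.06 CPM in KO, lay within or beside the WT range. In KO, the counts of Ngp and Ltf thus came almost wholly from embryo 9.

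All 10 genes had a positive log2 difference in KO at S1 with all libraries in the fit, with a median of 0.85 against -0.0071 over the 14039 genes tested. No gene was called (0 of 10, with 0 of 10 at an unadjusted p under 0.05 and 0 of 10 called by DESeq2), where the background of genes called higher was 0%. Both KO libraries were above all WT libraries for 3 of 10 genes, against a background of 6.57%. Without WT embryos 0 and 8, an alternative chosen after seeing the data, the median fell to 0.14. In that fit the difference of Mpo was 0.54 ± 0.19, of Lyz2 0.50 and of Ctsg 0.67, those of Elane (-0.06), S100a8 (-0.76), S100a9 (-0.51) and Camp (-0.35) turned negative, and again 0 of 10 were called. In that fit 4 of 10 had an unadjusted p under 0.05, Mpo, Ctsg and Lyz2 with positive differences and S100a8 with a negative one, beside 2.73% of all genes. For 4 of the 10 genes the direction in KO therefore depended on these 2 WT libraries. Without KO embryo 9 the differences of Ngp (-5.95), Ltf (-8.07), S100a9 (-0.17) and Camp (-0.27) were negative, the first pair with 1 and 0 counts left in KO. With sex as a covariate the difference of Ltf was negative (-0.23 in edgeR and -0.68 in DESeq2), 5 of 10 had an unadjusted p under 0.05 in edgeR, beside 5.68% of all genes, and Lyz2 was called higher by DESeq2 (1.24, adjusted p = 0.0369), where 1.22% of all genes were called.

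**Figure D3:**
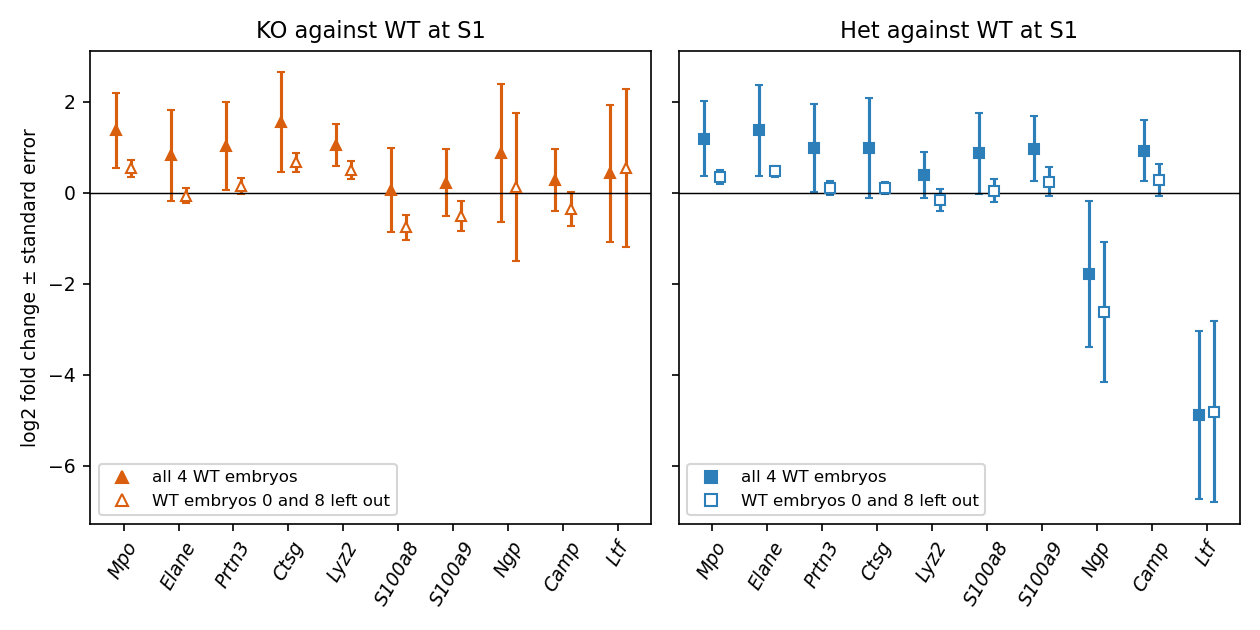
Log2 differences (points, with bars of 1 SE) of KO (left) and Het (right) from WT at S1 for the 10 genes, with all 4 WT embryos (filled) and without WT embryos 0 and 8 (open). With all libraries the median is 0.85 in KO and 0.95 in Het, and without the 2 embryos it is 0.14 and 0.11.

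Het embryos, which carry 1 deleted allele, were compared with the same WT libraries. Mpo was at 1093.7 and 1050.3 CPM in Het embryos 3 and 4, above all WT libraries (log2 difference 1.19 ± 0.82). Elane was at 195.0 and 193.6 CPM (1.37) and Ctsg at 76.5 and 76.7 CPM (0.99), also above every WT library. These 3 of 10 genes stand beside a background of 10.6% for genes whose Het libraries were all higher. Prtn3, at 105.6 and 116.1 CPM, and Lyz2, at 24.4 and 37.8 CPM, overlapped WT, as did S100a8 at 46.4 and 53.2 CPM. Ngp and Ltf had negative differences with all libraries in the fit. Ngp had 0 and 35 counts in Het, a log2 difference of -1.79 that was 0.04 without WT embryo 1, which held 219 of the 274 WT counts. Ltf had 0 and 2 counts against 139 over the 4 WT libraries, of which embryo 5 also had 0, a pooled CPM ratio of 0.0279 (95% exact counting interval 0.00334 to 0.103). The fitted difference of Ltf was -4.89 (unadjusted p = 0.0302, adjusted p = 0.905 in edgeR's test). No member was called in Het at S1 (0 of 10, with a background of 0% higher and 0% lower, 1 of 10 at an unadjusted p under 0.05, 0 by DESeq2 without covariates), and the median difference was 0.95, or 0.11 without WT embryos 0 and 8. With sex as a covariate, which sets the Het embryos, both male, against the 2 male WT embryos, 5 genes were called higher by edgeR and 8 by DESeq2, where 2.87% and 5.9% of all genes were called in either direction.

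At S3 the group was nearly silent apart from Lyz2. The 10 genes summed to 20.2, 19.4, 18 and 13.5 CPM in WT, 17.2 and 7.78 CPM in Het, and 5.01 and 19.3 CPM in KO. Lyz2 supplied 68.4% to 93.8% of the sum in every library but that of KO embryo 9, where it supplied 29.2%. Per kilobase, Lyz2 stood first in all 3 genotypes, with 11.2 ± 2.09 CPM per kb in WT (SD, n = 4), 8.01 ± 4.26 in Het and 3.45 ± 1.19 in KO (SD, n = 2 each). Mpo, first at S1, was down to 98, 59, 8 and 28 counts in WT, 37 and 15 counts in Het, and 13 and 30 counts in KO. Elane, Prtn3 and Ctsg had between 0 and 7 counts in each of the 8 S3 libraries. At these counts, differences between genotypes in the 3 proteases were not detectable.

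The S3 library of KO embryo 9 stood apart in the late-expressed genes. It held 37 counts of S100a8, 36 of S100a9, 65 of Ngp, 34 of Camp and 33 of Ltf, whereas the other 7 S3 libraries held 0 to 7, 0 to 5, 0, 0 to 3 and 0 to 3 counts of these genes. Summed, embryo 9 had 205 counts of the 5 late-expressed genes and the others 0 to 13. In the same library the azurophil genes were as low as elsewhere: Mpo, Elane, Prtn3 and Ctsg together gave 37 counts, within the range of 16 to 106 counts in the other S3 libraries. The ratio of late to azurophil counts in that library was thus 554.1 per 100, against 3.29 per 100 in the S1 library of the same embryo. At S3 it was also higher than at S1 in WT embryo 5 (81.2 against 7.93 per 100), KO embryo 2 (38.9 against 2.44), Het embryo 4 (10.0 against 5.66) and WT embryo 1 (7.25 against 4.52), on 13, 7, 2 and 5 late counts, and it was lower at S3 in the other 3 embryos. Other genes were also high there. Prg2 had 118 counts against 1 to 6 in the other S3 libraries, Cd34, a surface protein of early progenitors, 94 against 0 to 31 (the progenitor gene Kit had 5 counts there and up to 15 elsewhere), Lcn2 (lipocalin 2, a specific granule protein) 21 against 0 to 3, and the platelet genes Ppbp 460 against 4 to 87 and Pf4 505, which was second to 657 in WT embryo 0. The list of 14 further late-granule genes that holds Lcn2 summed to 5.81 CPM there and to 2.45 to 5.04 CPM in the other S3 libraries. In raw counts that list held 103 there and 36 to 110 in the others. The 8 megakaryocyte markers summed to 122.8 CPM there and to 57.4 to 103.3 CPM in the other S3 libraries. Of the 10 mast cell, basophil and eosinophil markers 7 were at 0 in that library, and Epx, the eosinophil peroxidase, had 6 counts. The transcription factor Cebpe, which drives specific granule genes, had 0 counts in all 8 S3 libraries and 24 to 444 counts at S1. These comparison genes were picked after their values were seen, and their part in the late-gene counts was not tested.

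**Figure D4:**
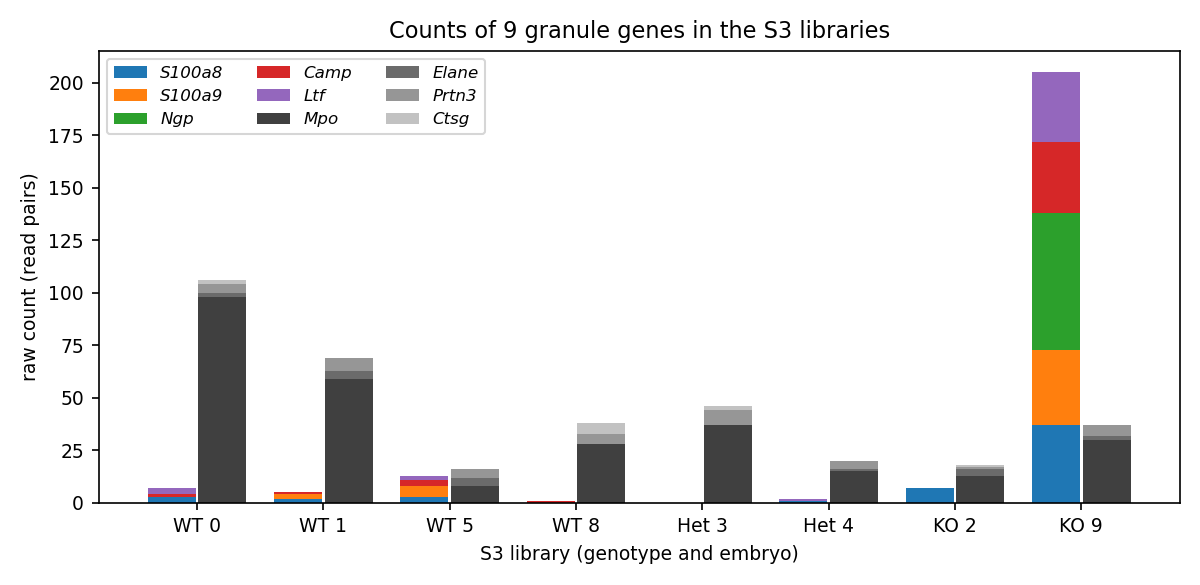
Raw counts in each S3 library, stacked in 1 coloured bar for S100a8, S100a9, Ngp, Camp and Ltf and 1 grey bar for Mpo, Elane, Prtn3 and Ctsg (Lyz2 is not drawn). The coloured bar reaches 205 counts in KO embryo 9 and at most 13 counts in the other 7 libraries.

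Only 3 of the 10 genes passed the filter on low counts in KO against WT at S3. Lyz2 fell: WT held 15.3, 16.1, 16.8 and 10.7 CPM and KO 3.43 and 5.64 CPM, with no overlap and a log2 difference of -1.68 ± 0.28 (adjusted p = 0.0458 in the same edgeR test; 12 of 11804 genes, 0.102%, were called lower). The share of all genes with both KO libraries below every WT library was 9.37%. The call was close to the threshold. It was lost when any single library was left out (adjusted p from 0.0566 to 0.223, differences from -2.08 to -1.38), with size factors by relative log expression (adjusted p = 0.0501), with all 16 libraries in the fit (adjusted p = 0.196) and without WT embryos 0 and 8 (adjusted p = 0.0961), and it held in DESeq2 and without the filter (adjusted p = 3.3e-05). The Lyz2 difference was -1.69, -1.70 and -1.84 in the last 3 of the fits that lost the call. The call also held with sex as a covariate in edgeR and DESeq2, where 4.63% and 6.18% of all genes were called in either direction. Mpo differed by -0.85 ± 0.82 (adjusted p = 0.886). Ngp, with 65 counts in KO embryo 9 and 0 in KO embryo 2 and all WT libraries, passed the filter through that 1 library alone. It was not called (adjusted p = 0.312; 0.457% of all genes were called higher). It was called with sex as a covariate (adjusted p = 0.00447 in edgeR's test), a fit in which 4.63% of all genes were called in either direction. Without KO embryo 2, where KO embryo 9 is the only KO library, its difference was 9.25, fitted against 0 counts in WT. It could not be tested without KO embryo 9. S100a8 also passed the filter in each fit without 1 WT library and was not called there. KO embryo 9 held 37 of its 44 KO counts.

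Macrophage genes were low in the same libraries in which Lyz2 was low. At S3 the 12 macrophage markers summed to 71.4, 69.2, 83.6 and 39.7 CPM in WT embryos 0, 1, 5 and 8, 57.4 and 44.2 CPM in Het, and 33.4 and 18.9 CPM in KO embryos 2 and 9. All 11 that were tested had a negative difference in KO, with a median of -1.44 against 0.0072 over all genes tested. Both KO libraries were below every WT library for 6 of 11, beside 9.37% of all genes. In edgeR's test 2 were called lower, beside 0.102% of all genes, each with an adjusted p of 0.0242. They were Marco (-2.58 ± 0.35) and Fcna (-1.89 ± 0.26), scavenger receptor and ficolin of tissue macrophages. The hepatoblast markers summed to 764.6, 223.9, 158.6 and 484.3 CPM in the same WT libraries and to 68.9 and 205.6 CPM in KO embryos 2 and 9, so that embryo 9 lay inside the WT range. Their 9 differences were negative (median -1.49), and both KO libraries were below every WT library for 3 of 9, beside 9.37% of all genes. None was called by edgeR, 5 of 9 had an unadjusted p under 0.05, beside 8.52% of all genes, and DESeq2 called Apoa1 and Apoa2, where 2.19% of all genes were called. The part of macrophage or hepatoblast RNA in the Lyz2 difference was not tested.

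**Figure D5:**
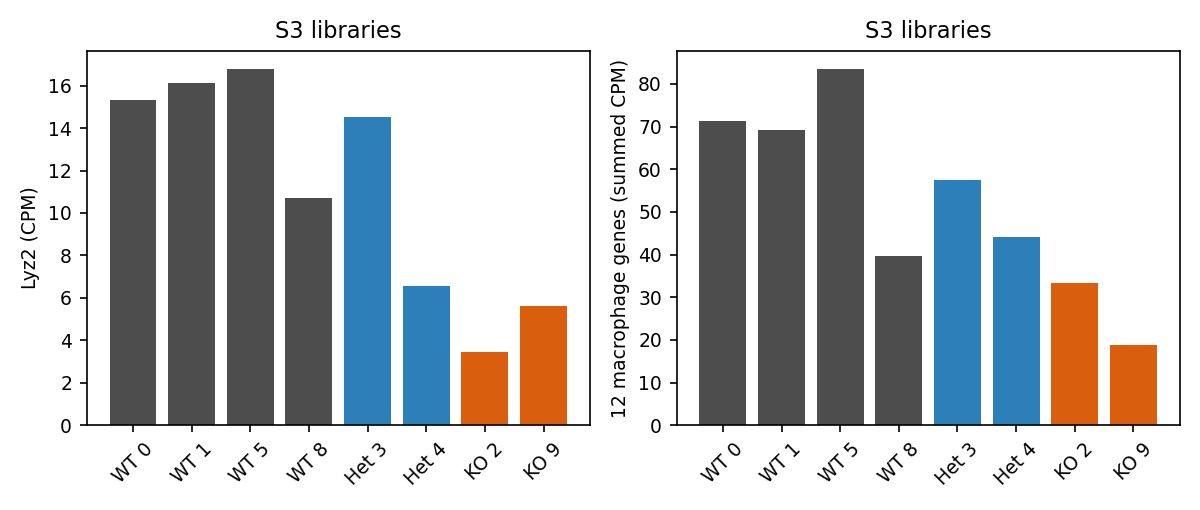
Lyz2 level in CPM (left) and summed CPM of 12 macrophage markers (right) in each S3 library, with bars coloured by genotype. The KO libraries have the lowest Lyz2 values (3.43 and 5.64 CPM) and the lowest marker sums (33.4 and 18.9 CPM).

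Leaving out the filter brought 5 further genes past the threshold in KO at S3, all with most of their KO counts in embryo 9. S100a8 (3.71), S100a9 (3.59), Ngp (8.19), Camp (3.67) and Ltf (3.9) were then called higher. In edgeR's test their adjusted p were 0.00205, 0.0328, 1.29e-05, 0.023 and 0.024, where 1.52% of all genes were called in either direction. The Ngp value was fitted against 0 counts in WT, and its pooled CPM ratio had only a bound, at least 55.1-fold. With KO embryo 9 left out as well, an alternative chosen after seeing the data, Ngp had no counts left to test, none of the other 4 was called (0.68% of all genes were), and the differences of S100a9 (-3.76), Camp (-3.61) and Ltf (-3.32) were negative, each fitted against 0 counts in KO embryo 2. In Het at S3 Mpo (-0.65) and Lyz2 (-0.50) alone passed the filter and neither was called (0 at an unadjusted p under 0.05 and 0 by DESeq2, background 0%). Lyz2 was at 14.5 and 6.57 CPM in Het embryos 3 and 4, so that 1 Het library lay within the WT range and 1 below it.

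The change from S1 to S3 in WT was large for most of these genes, but not for Lyz2. In WT, Mpo fell from 77579 counts over the 4 S1 libraries to 193 over the 4 S3 libraries, a 208.4-fold drop in pooled CPM (95% exact counting interval 181.0 to 241.3). Elane fell from 12393 to 10 counts, S100a8 from 4430 to 8 and Ngp from 274 to 0, the last at least 47.4-fold. Embryo 1 held 219 of the 274 Ngp counts, and the bounds within embryos 0, 5 and 8 were at least 4.89-fold, 1.91-fold and 2.45-fold. Fitted to the 8 WT libraries, the log2 change was -7.68 ± 1.02 for Mpo, -9.30 ± 1.25 for Elane, -7.93 ± 1.11 for Prtn3, -8.77 ± 1.47 for Ctsg, -8.14 ± 1.10 for S100a8 and -6.65 ± 0.95 for S100a9 (adjusted p from 8.41e-05 to 0.000404, edgeR's test). The specific granule genes Camp (-5.12 ± 0.75, adjusted p = 0.000163), Ngp (adjusted p = 0.00891) and Ltf (-3.72 ± 1.24, adjusted p = 0.022) fell as well. The Ltf call was lost without WT embryo 1 (adjusted p = 0.108) or WT embryo 8 (adjusted p = 0.0849). Without WT embryo 1 Ngp did not pass the filter, so that 7 of the 9 genes tested were called lower. In that fit 62% of all genes were called in either direction.

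Lyz2 was the exception in WT. Its level was 9.89 to 37.3 CPM at S1 and 10.7 to 16.8 CPM at S3, with a log2 change of -0.69 ± 0.38 that was not called (adjusted p = 0.134 in edgeR's test). The macrophage markers were higher at S3 over the same libraries, with sums of 12.3 to 36.6 CPM at S1 and 39.7 to 83.6 CPM at S3 and 10 of the 11 tested called higher (median 1.96), beside 30.6% of all genes. Lyz2 was called lower without WT embryo 8 (-0.78, adjusted p = 0.0333) and without WT embryos 0 and 8 (-1.06, adjusted p = 0.00418). In all, 9 of 10 genes fell in WT, beside a background of 35.0% of 13514 genes called lower, and in 8 of 10 every S3 library was below every S1 library, beside 32.0%. The median change was -7.80, or -7.17 with Ngp at its bound, against -0.084 over all genes. Within the embryos the drop in Mpo ranged from 31.4-fold in embryo 0 to 2398.1-fold in embryo 5. The 2 embryos with the least Mpo at S1, 0 and 8, also had the smallest drops, of 31.4-fold and 48.3-fold. Without TMM scaling the median of all genes shifted from -0.06 to -0.81, a shift small beside most of these changes but as large as that of Lyz2.

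In KO, 7 of 10 genes fell from S1 to S3 (background 30.0%), with a median change of -3.93. Without KO embryo 9 the median was -9.54 over 9 genes tested. Mpo (-9.89 ± 1.35), Elane (-9.76 ± 1.52), Prtn3 (-9.27 ± 1.43), Ctsg (-11.68 ± 2.06, with 1 count over both S3 libraries) and Lyz2 (-3.42 ± 0.56) fell, as did S100a8 (-4.44 ± 1.04) and S100a9 (-3.23 ± 1.10). Ngp (-0.67), Camp (-1.66, adjusted p = 0.178) and Ltf (-0.18) were not called. In KO embryo 9 the S1 level exceeded the S3 level 724.4-fold for Mpo but 13.6-fold for S100a8, 5.92-fold for S100a9, 2.11-fold for Camp, 1.6-fold for Ngp (95% exact counting interval 1.22 to 2.12) and 1.14-fold for Ltf (0.767 to 1.75). In KO embryo 2 Camp had 90 counts at S1 and 0 at S3, at least 11.2-fold fewer. With the embryo as replicate block edgeR called Camp (-2.19, adjusted p = 0.0318), giving 8 genes, where 61.3% of all genes were called in either direction. Leaving out either KO embryo leaves 1 KO library per stage, so that the spread in those fits comes from the WT and Het libraries and the lone KO library is assumed to vary like them. Under that assumption Camp was called without KO embryo 9 (adjusted p = 0.0157), and S100a8 (-3.77, adjusted p = 0.0515) and S100a9 (-2.57, adjusted p = 0.12) were not called without KO embryo 2. DESeq2 did not call S100a9 either (-3.27, adjusted p = 0.0847).

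In Het, 8 of 10 genes fell (background 32.4%), with a median of -9.87, or -8.46 over the 9 genes with a usable fold once those at 0 were set to their bounds. S100a9 went from 1364 counts at S1 to 0 at S3 and Camp from 395 to 0, at least 189.9-fold and at least 55.0-fold. Lyz2 fell by 1.56 on the log2 scale (adjusted p = 0.0172), and this call was lost without Het embryo 4 (-0.76, adjusted p = 0.404). Ngp, with 0 and 35 counts at S1, was not called (adjusted p = 0.326) but was with the replicate block (adjusted p = 0.00687). Ltf had 2 counts at S1 and 1 at S3, too few for a fold.

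Whether the KO effect differed between the stages was tested as an interaction over the 12 WT and KO libraries. None of the 10 genes was called (0 of 10, beside a background of 0.00742% higher and 0% lower). In edgeR's test 3 of 10, S100a8, Lyz2 and Camp, had an unadjusted p under 0.05, beside 3.11% of the 13485 genes tested. Of the KO counts at S3, embryo 9 held 37 of 44 for S100a8 and all 34 for Camp. The differences were all negative for the 5 azurophil genes, from -2.93 to -0.48, and all positive for S100a8, S100a9, Ngp, Camp and Ltf, from 3.41 to 8.00, the last for Ngp, whose WT libraries were at 0 at S3. The positive values of S100a9 (3.41) and Camp (3.44) became -4.19 and -3.91 without KO embryo 9, where the other KO library was at 0 at S3, and that of Ctsg (-2.93) became 2.43 without WT embryos 0 and 8. Lyz2 was higher than WT in both KO libraries at S1 and lower in both at S3. Its interaction was -2.74 ± 0.62 (adjusted p = 0.968 with edgeR), and it was called by DESeq2 (-2.76, adjusted p = 0.0183) and by edgeR without the filter (-2.78, adjusted p = 0.0162).

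Genes that work beside these proteins were followed in 5 lists. By edgeR's test none was called in any of the 4 genotype comparisons, with 4 of the 40 tested in KO at S1 and 6 of the 22 tested in KO at S3 at an unadjusted p under 0.05, beside 2.53% and 8.52% of all genes. DESeq2 called 0 in KO at S1 and 2 of 22 in KO at S3, Srgn and Cebpb, beside 2.19% of all genes. The positive differences at S1 were smaller without WT embryos 0 and 8: the list medians were then 0.39 for granule processing, -0.17 for late-granule genes, 0.29 for transcription factors, -0.02 for receptors and 0.07 for the oxidase, with 0 genes called by edgeR and 3 of the 39 tested at an unadjusted p under 0.05. The values that follow are from all libraries. Among genes that process and pack granule proteins, 8 of 10 were tested in KO at S1 and all 8 had positive differences, with a median of 0.94. Srgn, the proteoglycan core protein that holds proteases in granules, was at 29.6 to 141.1 CPM in WT and at 182.7 and 190.8 CPM in KO (1.03 ± 0.56), and Cd63, a membrane protein of azurophil granules, was at 15.6 to 134.4 CPM in WT and 147.7 and 186.7 CPM in KO (1.24 ± 0.67). Both KO libraries were above every WT library for these genes, as they were for 5 of the 8 (background 6.57%). Gusb, a lysosomal glucuronidase, differed by 0.20 ± 0.17. At S3, Srgn had the smallest adjusted p of these genes (1.33 ± 0.25, adjusted p = 0.0745), with 10.3 to 18.4 CPM in WT and 27.8 and 38.3 CPM in KO.

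Transcription factors of granulocytes were all 8 positive in KO at S1, with a median of 0.87, and none was called. Spi1, which encodes PU.1, was at 3.83 to 24.7 CPM in WT and at 27.9 and 30.2 CPM in KO (1.03 ± 0.65). Cebpb was at 5.42 to 8.29 CPM in WT and 9.63 and 12.1 CPM in KO (0.70 ± 0.26), and at S3 at 2.17 to 3.59 CPM and 5.76 and 7.55 CPM (1.25 ± 0.27, adjusted p = 0.112). Runx1 differed by 0.30 ± 0.27 at S1, with 11.1 to 18 CPM in WT and 13.9 and 20.3 CPM in KO. Of further late-granule genes 9 of 14 were tested, 7 with positive and 2 with negative differences (-0.63 to 1.69, median 0.24), among them Anxa1 (1.69 ± 0.84), which restrains neutrophil migration, the integrin subunit Itgb2 (0.63 ± 0.23) and Olfm4 (0.84 ± 0.57), a marker of a subset of neutrophils. Of receptors and surface proteins 8 of 9 were positive (median 0.38), with Fcgr3 at 1.12 ± 0.85, Csf2ra at 0.34 ± 0.38 and Selplg at -0.03 ± 0.27. All 6 genes of the NADPH oxidase, which makes superoxide, were positive (median 0.77), with Ncf4 at 0.69 ± 0.66, Cyba at 0.59 ± 0.60 and Rac2 at 0.32 ± 0.27. Some genes of these lists were at or near 0: Ly6g had 0 counts over the 16 libraries, Lyz1, the neighbouring lysozyme gene, had 2, and Bpi and Chil3 had 4 each. Other genes of these lists were detected at S1, with 1460 counts of Csf3r, 838 of Mcemp1, 327 of Cxcr2 and 152 of Il1r2 over the 8 libraries. Retnlg, Lrg1, Fpr1 and Mmp9 had 11, 20, 36 and 38 counts over the same libraries, and Fpr2 had 2.

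From S1 to S3 in WT most of these companions fell too. Genes lower at S3 were 7 of 8 for granule processing, 5 of 6 for late-granule genes, 6 of 7 for transcription factors, 6 of 8 for receptors and 3 of 6 for the oxidase, beside 35.0% of all genes tested. Olfm4 (-7.61 ± 0.88), Selplg (-5.08 ± 0.32), Anxa1 (-5.04 ± 0.99), Cd63 (-4.34 ± 0.67) and Cyba (-3.26 ± 0.52) were among them. Spi1 (-1.63 ± 0.52) and Cebpb (-1.25 ± 0.25) fell less. Against this trend Ncf4 rose from 1.83 to 11.2 CPM at S1 to 72.3 to 82.8 CPM at S3 (3.75 ± 0.52, adjusted p = 0.000117), and Cd177, a surface protein of neutrophils, rose by 3.51 ± 0.62 (adjusted p = 0.000556). The receptor Trem1 rose by 1.17 ± 0.32 (adjusted p = 0.00822, all by edgeR's test). Gusb, Rac2 and Runx1 were not called.

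Profiles across the 16 libraries were compared by the root mean square (RMS) difference of centred log2(CPM + 1) from the mean profile of the 10 genes, over 13406 genes. The genes nearest to it that are not members were Ramp1 (RMS 0.3), a partner of the calcitonin receptor-like receptor, Cst7 (0.31), an inhibitor of cysteine proteases, Coro1a (0.34), an actin regulator of blood cells, Prg3 (0.35), an eosinophil granule protein, and Cstdc5 (0.35). Cst7 was also on the list of granule processing genes. The members' own distances from their mean profile ran from 0.45 (S100a9) to 2.15 (Mpo), so that each member lay farther from it than these 5 genes. Ramp1 was at 3.59 to 29.7 CPM in WT, 21.5 and 22.7 CPM in Het, and 20.7 and 25.5 CPM in KO at S1, with the Het and KO libraries inside the WT range, and did not exceed 0.35 CPM in any S3 library. Coro1a kept 1.08 to 5.75 CPM at S3. Prg3 was higher in KO at S1 (30.1 and 45.2 CPM) than in WT (1.87 to 21.9 CPM). The 16 points are 8 embryos at both stages and share these libraries with the members.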

How the data were processed

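RNA-seq counts of the 16 libraries were taken from the deposited table of the whole series. The authors aligned paired reads, made after SMARTer-type amplification and poly(A) selection, with STAR 2.7.9 to mm39 and counted them per Ensembl 104 gene with featureCounts 1.6.4, without strand, per the labels and the study's methods. The deposited values are raw counts per gene with no normalization. The study's methods name no removal of amplification duplicates, and intervals cover counting error only. Groups, stages, embryo numbers and sex came from the sample titles; 4 further library columns matched no sample and were not used. Each of the 8 embryos gave 1 library per stage.

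Counts were tested with edgeR 4.0.16 (R 4.3.3; glmQLFit and glmQLFTest, TMM scaling, Benjamini-Hochberg adjustment over all genes tested, threshold 0.05), after leaving out genes with a mean of 10 or fewer normalised counts in the libraries of the fit. Genotype comparisons used the libraries of 1 stage, the WT stage comparison the 8 WT libraries, the Het and KO stage comparisons all 16 libraries and the interaction the 12 WT and KO libraries. CPM were scaled by TMM over all 16 libraries, and the 10 members were ordered per kilobase of the table's gene length. Shares of a sum and the choice of companion genes by level used CPM without regard to length. The floor was 3 counts, pooled over a group or, within 1 embryo, per library. Count ratios carry 95% exact intervals. The script was run on simulated counts in which every gene had the same spread. That run does not show how the tests perform where embryos of a group differ as WT did at S1. Alternatives were DESeq2 1.42.0, other scalings, no filter, sex as a covariate, all libraries, the embryo as replicate block and leaving out libraries. The stages share embryos by their numbers in the titles. Over 13402 genes, deviations from the group means of the same embryo at S1 and S3 correlated at 0.03, 0.31, 0.44 and 0.45 in WT embryos 0, 1, 5 and 8, 0.08 in Het and 0.58 in KO.

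The members, the 5 companion lists and the 7 marker lists were chosen with earlier results of these data known. Beyond the members and Nprl3, the text names the 3 genes of each companion list with the largest mean CPM, the 5 genes with the nearest profile, and a few genes chosen after their values were seen: Cd177, Trem1, Csf3r, Mcemp1, Cxcr2, Il1r2, Kit, Lyz1, Bpi, Chil3, Ly6g, Lcn2, Cd34, Pf4, Ppbp, Prg2, Epx, Cebpe, Apoa1, Apoa2, Marco and Fcna. Retnlg, Lrg1, Fpr1, Mmp9 and Fpr2 were chosen in the same way. Promoter windows and motif searches used Python 3.11.15.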

Additional observations from a re-analysis of the deposited data

Results flagged for a closer look

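Of 21 sets of 4 WT libraries examined for a value far from the others, 1 stood out, where chance marks about 1 in 20. Ngp was at 5.12 CPM in WT embryo 1 at S1, and the gap to the nearest of the other 3 embryos was 0.916 of the whole range, which runs down to 0.219 CPM in embryo 5.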

How the results depend on the processing

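Of 854 single-gene values under the alternatives, 789 kept direction and side of the threshold. Of 224 counts and sums 203 were kept by looser rules. A count of called members had to stay near the reported count, and a sum had to move by less than the SD of its group. For the WT sum at S1 this rule was wide, with an SD of 613.7 on a mean of 697.9 CPM. In KO at S1 Ltf turned to -0.23 with sex in edgeR and -0.68 with sex in DESeq2, where 1 member was called higher; without WT embryos 0 and 8 Elane (-0.06), S100a8 (-0.76), S100a9 (-0.51) and Camp (-0.35) turned, and over single libraries left out the differences ran from -0.32 to 0.79 for S100a8, -0.17 to 0.80 for S100a9, -5.95 to 2.71 for Ngp, -0.27 to 0.67 for Camp and -8.07 to 1.40 for Ltf, the lowest being without WT embryo 8 for S100a8 and without KO embryo 9 for the other 4. In Het at S1 Ngp ran from -9.13 to 0.04 over single libraries left out, Lyz2 was -0.16 without WT embryos 0 and 8, and 5 (edgeR) or 8 (DESeq2) members were called higher with sex. In KO at S3 members called lower were 0 with relative log expression factors, all 16 libraries, TMM over all genes, without WT embryos 0 and 8, and 0 to 0 over single libraries left out; members called higher were 5 without the filter, 1 (Ngp) with sex in edgeR, where 4.63% of all genes were called against 66 of 11804 in the reported fit, and 0 to 2 over single libraries left out. Fits without 1 of the 2 Het or KO embryos take their spread from the other libraries. Mpo in Het at S3 was 0.0038 without WT embryos 0 and 8. In the interaction S100a9 ran from -4.19 to 4.08 and Camp from -3.91 to 4.03 over single libraries left out, Ctsg was 2.43 without WT embryos 0 and 8, and members called lower were 1 with DESeq2 and 1 without the filter. Unscaled CPM gave mean sums of 2089.4 in Het and 2369.7 in KO at S1 and 12.6 in WT at S3, against 1556.8, 1658.7 and 17.8. The replicate block gave 8 members lower in KO and 9 in Het from S1 to S3 through Camp and Ngp. In these fits 61.3% and 65.9% of all genes were called in either direction. The block changed no other call, the interaction of Lyz2 being -2.91 (adjusted p = 0.153 in edgeR's test). The causes were not tested. For genes with under about 10 counts a library at S3, the folds rest on few read pairs.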
